A study of Homo sapiens with 2 samples.

Results

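The transcripts of ZFP36L1, ZFP36L2, ZFP36 and ELAVL1 encode proteins that bind AU-rich elements, and all 4 carried sites of the RNA-binding protein RBMS3 in their 3′UTRs. The sites were read from a list of RBMS3 positions in MDA-MB-231, a human cell line from triple-negative breast cancer, that carried a FLAG-tagged RBMS3. Both biological replicates carried the tagged protein and formed the only group, and their sequenced fragments had been pooled before sites were called, so the spread between replicates is not known for any value and nothing was tested between groups. No library without the tag and no library of input RNA was analysed here.

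A site was counted as a member when it lay inside one of these 4 genes (GENCODE release 44, hg38) on the strand of the gene. This gave 28 of the 27706 listed sites. ZFP36L1 held 17, ZFP36L2 held 5, ELAVL1 held 5 and ZFP36 held 1. ZFP36L1 was chosen by its readout, because it holds the site with the most deletions in the list, 7182, ahead of S100A6 with 5793. The deletions at that site are therefore a description and are given without a test.

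ZFP36, ZFP36L1 and ZFP36L2 belong to a family of proteins with tandem CCCH zinc fingers. They bind AU-rich elements in the 3′UTRs of short-lived mRNAs, such as those of cytokines and early response genes, and recruit the CCR4-NOT deadenylase, which shortens the poly(A) tail. ELAVL1, also known as HuR, binds U-rich and AU-rich stretches and is known to stabilise many of the same mRNAs. The pentamer ATTTA in DNA letters is the core of the AU-rich element, and TATTTAT is the longer form that ZFP36 proteins prefer. Transcripts of such regulators often carry AU-rich elements themselves.

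The method marks an RNA contact by a deleted base, which the reverse transcriptase skips where a remnant of the crosslinked protein sits, although deletions arise in other ways too. For each site the list gives the number of tags, which are unique sequenced RNA fragments over the site, and the number of tags that carry the deletion. The percentage of tags with the deletion is given below with its 95% Wilson interval, which covers counting error only. Tag counts were not adjusted for the amount of each mRNA, which was not measured here, so a transcript with more tags may be more bound or more abundant and these cannot be told apart.

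The stretches of 30 nt below show the sites that the results turn on, 5′ to 3′ on the transcript strand, in hg38. Base 16 of each is the listed position for the plus-strand gene ZFP36 and for the minus-strand genes alike, and the capitals mark the run of identical bases that holds the deletion. They are shown because they differ in what these 30 nt hold: a run of at least 6 A, a poly(A) signal, both or neither. Those with neither in the 30 nt have a run of A farther downstream.
ZFP36L1, end of the shorter 3′UTR (chr14:68788604-68788633, minus): aacaacAAAAAAAAAAtgagagaaaagcta
ZFP36L1, between the ends (chr14:68787951-68787980, minus): aggaaaacaacTTTTTatgtatagcttcta
ZFP36L1, end of the longer 3′UTR (chr14:68787670-68787699, minus): gcagtttaaaaatcAAtaaaccccgttttt
ZFP36L2, early in the 3′UTR (chr2:43224037-43224066, minus): tcgaactttttctgTTgaacaaaatattca
ZFP36L2, end (chr2:43222402-43222431, minus): ccccaataaaaTTTTTgggaaaaaaaggta
ZFP36, end (chr19:39409367-39409396, plus): tttgtgttttgggcaTTTTTaaataaacaa
ELAVL1, internal (chr19:7962277-7962306, minus): taagaccattaaaTTTgattttgttttgct
ELAVL1, far downstream (chr19:7959219-7959248, minus): gtttttacatgggTTTgttttcaataaagt

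All 28 sites were in 3′UTRs, against 76.6% of all listed sites. That share also counts intergenic sites and sites in noncoding genes, which could not be members, so the 2 shares are not of like sets. Of the 20046 protein-coding genes, 31.3% had a site in the 3′UTR and 37.6% had a site anywhere on their strand, so each of the 4 genes belonged to a minority of annotated genes, many of which may not be expressed in these cells. When sites within 50 nt were joined, the 28 sites formed 11 clusters, which were 4 each in ZFP36L1 and ZFP36L2, 2 in ELAVL1 and 1 in ZFP36. The median percentage was 1.81% over the 28 sites and 1.96% over the 21230 3′UTR sites of the list. The median number of tags was 6866 against 4925.5.

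**Figure D1:**
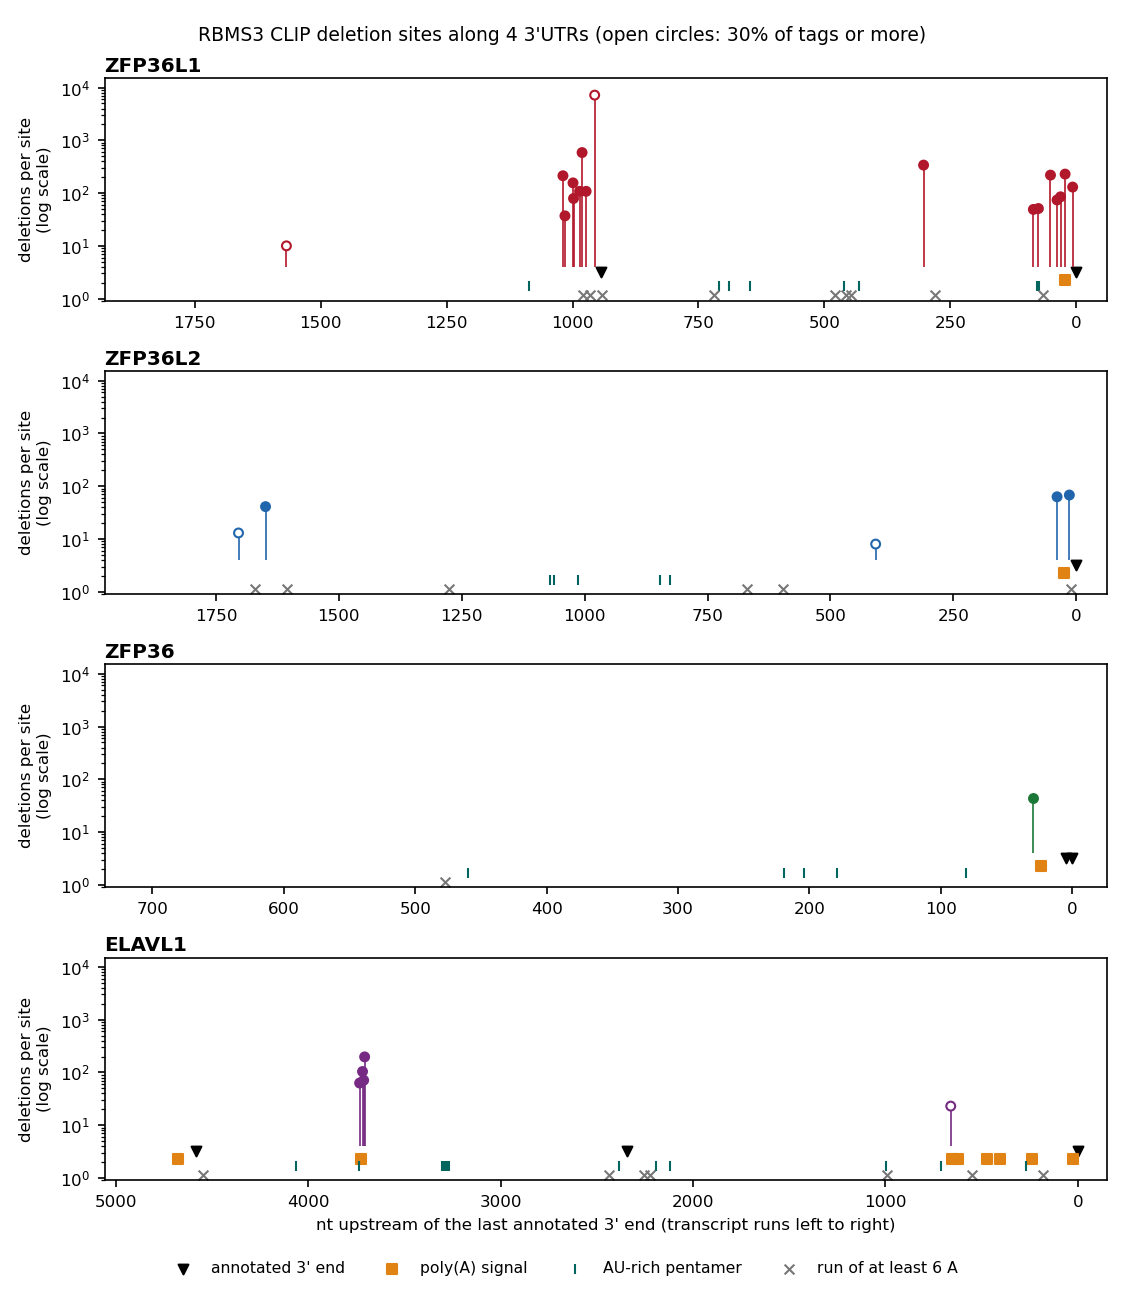
Sites along the 3′UTRs of ZFP36L1, ZFP36L2, ZFP36 and ELAVL1. The x axis gives nt upstream of the last annotated 3′ end on a scale of its own in each panel, the y axis gives deletions per site on a log scale, and open circles are sites with the deletion in 30% or more of the tags. The marks below the sites show annotated 3′ ends, poly(A) signals (AATAAA or ATTAAA), the AU-rich pentamer and runs of at least 6 A. Most ZFP36L1 sites lie in a cluster near one or the other of its annotated ends.

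ZFP36L1 lies on chromosome 14 from 68787660 to 68796253 (minus strand) and has an annotated 3′UTR of 1874 nt. Its 17 sites placed it at rank 66 of 6269 genes by number of 3′UTR sites and at rank 2 by summed deletions, where the median gene had 2 sites and the highest had 42. The sum was 9655 deletions, of which the single highest site gave 74.4%. The annotation gives the coding transcripts 2 ends inside this 3′UTR, 943 nt apart. Of the 17 sites, 15 lay within 100 nt of one of them, against 65.7% of all 3′UTR sites, and these formed only 2 clusters. The cluster at the end of the shorter 3′UTR had 8 sites between 68788618 and 68788681, and that at the end of the longer one had 7 sites between 68787669 and 68787747.

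At the end of the shorter 3′UTR, the sites had 23225 tags 76 nt from the end, 47050 at 43 nt and 23840 at 13 nt. The site 13 nt from the end (position 68788618) was the one with 7182 deletions, in 30.1% of its tags (interval 29.5 to 30.7%). The other 7 sites of this cluster had far lower percentages. Next came position 68788643 with a T deleted in 586 of 43523 tags (1.35%, interval 1.24 to 1.46%), 38 nt before the end. A T was deleted in 213 of 23225 tags at position 68788681 (0.917%, interval 0.802 to 1.05%), and at the neighbouring position 68788677 only 37 of 24804 tags carried a deleted G (0.149%, interval 0.108 to 0.206%), the lowest percentage of all 28 sites. The remaining 4 sites, at positions 68788635, 68788648, 68788660 and 68788661, lay between 0.209 and 0.419%. The highest percentage in the cluster thus sat nearest to the annotated end and the other percentages showed no order along it.

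At the end of the longer 3′UTR the tags were fewer and all percentages were low. The highest tag count was 25517, at position 68787684, so the highest count at the shorter end was 1.84 times as large. Positions at the shorter end also lie inside the longer 3′UTR, so their tags can come from either form. At position 68787684, 229 tags carried a deleted A (0.897%, interval 0.789 to 1.02%). The pair of A that holds the deletion is the first pair of the signal AATAAA. The site nearest to the end, at 7 nt, had 130 deletions in 20451 tags (0.636%, interval 0.536 to 0.754%). The highest percentage of this cluster was 2.80% (interval 2.46 to 3.19%), from 219 of 7825 tags at position 68787713, 51 nt from the end. The farthest pair, at 75 and 85 nt, had 51 of 4146 and 49 of 2628 tags with a deleted T (1.23 and 1.86%). The lowest percentages were at 38 and 31 nt, with 74 of 18470 tags at position 68787700 (0.401%) and 85 of 23236 tags at position 68787693 (0.366%).

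**Figure D2:**
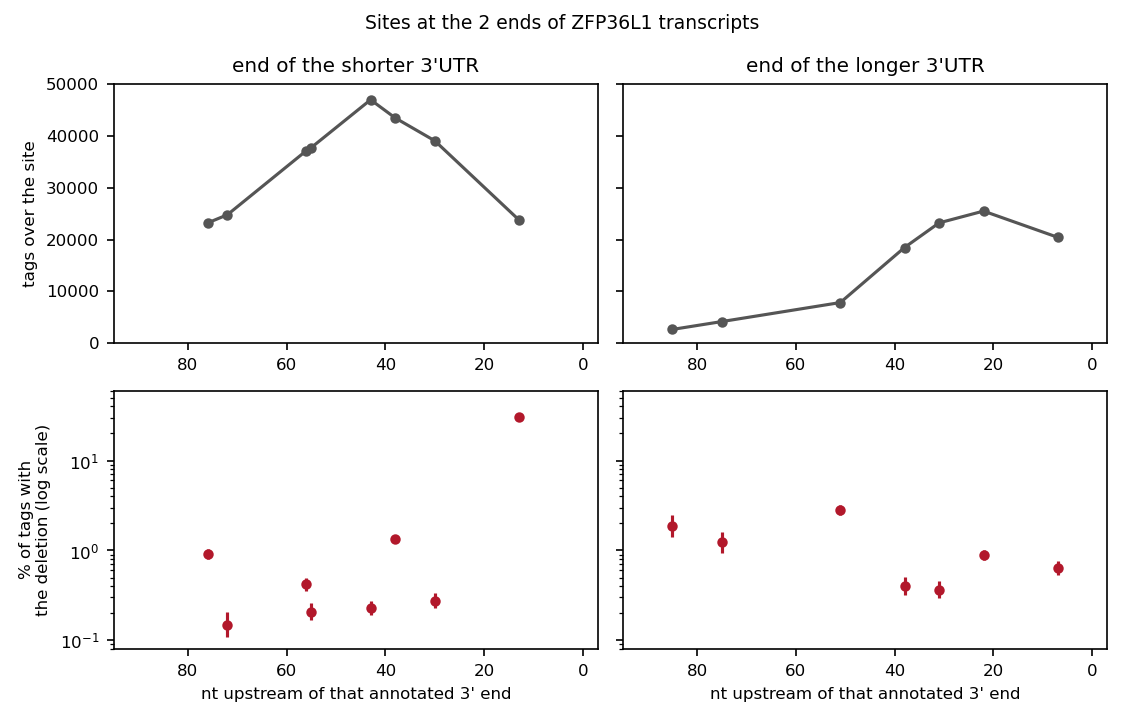
ZFP36L1 sites within 100 nt of each annotated 3′ end, with nt upstream of that end on the x axis. The upper panels give the tags over each site and the lower panels give the percentage of tags with the deletion on a log scale, with 95% Wilson intervals. Tags peak at 47050 at the shorter end and at 25517 at the longer end, and the site at 30.1% stands alone 13 nt from the shorter end.

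The sequence around these 2 ends differed. The poly(A) signal, a hexamer that directs cleavage and polyadenylation, is mostly AATAAA or less often ATTAAA. Other variants were not searched. The 1874-nt 3′UTR of ZFP36L1 held 1 copy of either, 23 nt before the end of the longer form. In the cluster there, 4 of the 7 sites had it within 25 nt. None of the 8 sites at the shorter end had AATAAA or ATTAAA within 25 nt or within 50 nt. A run of 12 A followed there, at 68788593 to 68788604, and it began at the base after the annotated end at 68788605. All 8 sites of this cluster had a run of at least 6 A in the genome within the next 50 nt, against 11% of all 3′UTR sites. Yeast poly(A) polymerase, according to the methods, extended the bound RNA with A, and oligo(dT) then served for capture and priming. Native A-rich RNA can also anneal to oligo(dT), and the part of this in the tags at the shorter end was not tested.

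The deletion at 68788618 also lay inside a run of A. The run is 10 nt long, so the deleted base cannot be placed within it, and the list gives its lowest coordinate. The run of 8 A just upstream in the same cluster, at 68788635, was covered by more tags, and 108 of 39110 carried a deletion (0.276%, interval 0.229 to 0.333%). These 2 runs of A thus differed widely in percentage. Sites of a cluster share tags and the higher site was chosen for its deletions, so this difference was not tested. Over the whole list, 114 of the 3′UTR sites had the deletion in a run of 8 or more A, and 95 of these had at least 1000 tags. Their median was 1.75% (quartiles 1.04 and 3.17%), and the ZFP36L1 value was the highest, followed by BAZ2A with 26.9%. The ZFP36L1 site was chosen for its deletions, which also enter its percentage, so this rank is a description. Among the 18 with exactly 10 A the median was 1.57%, the lowest value was 0.601% and the highest after ZFP36L1 was 17.0%. Of all 95, 6 were at or over 10%. A deleted A was found at 4 of the 28 sites, against 21.5% of 3′UTR sites.

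**Figure D3:**
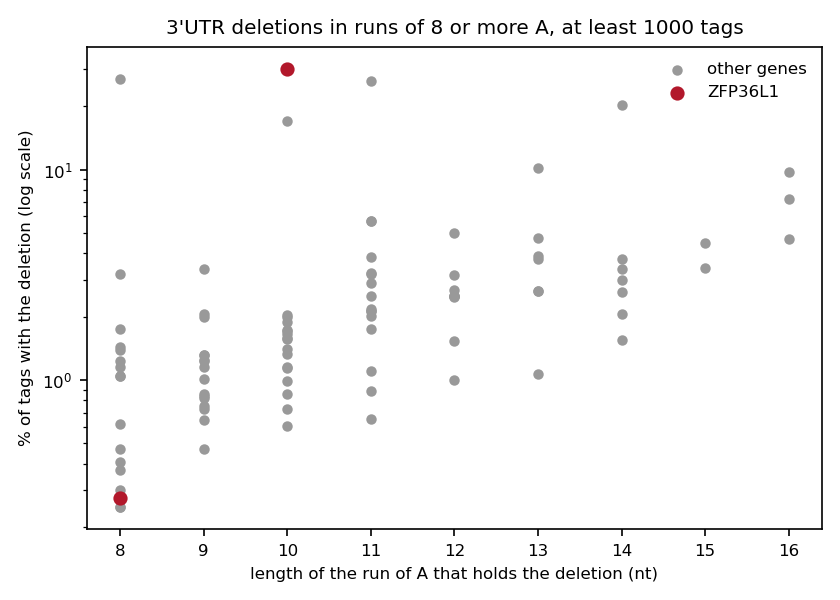
Percentage of tags with the deletion (log scale) against the length of the run of A that holds it, for the 95 3′UTR sites in runs of 8 or more A with at least 1000 tags. Both ZFP36L1 sites of this kind are marked, 1 at 30.1% in a run of 10 A and 1 at 0.276% in a run of 8 A.

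Few listed sites resembled the highest ZFP36L1 site in both depth and percentage. Of 150 sites with at least 1000 deletions, 6 were at or above 10% of tags. The other 5 were in MT-RNR2 (4971 of 22000 tags, 22.6%), RPL30 (3985 of 27447 tags, 14.5%), G0S2 (3159 of 9005 tags, 35.1%), HSPA9 (1477 of 12348 tags, 12.0%) and an intron of EFCAB3 (1162 of 7965 tags, 14.6%). The MT-RNR2 position is an N in the reference, a placeholder rather than a base, so its deletions do not mark a skipped RNA base and 4 sites remain for comparison. G0S2, which encodes an inhibitor of triglyceride breakdown, was the only other one of the 6 with a deleted A, in a run of 7 A that lay 20 nt from an annotated end. Likeness here was read from the pooled list alone, not over samples.

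Between its 2 ends ZFP36L1 had 1 more deep site. At position 68787965, 303 nt from the last end, 339 of 13377 tags carried a deleted T from a run of 5 (2.53%, interval 2.28 to 2.81%). No poly(A) signal lay within 50 nt of it, and a run of 13 A began 22 nt downstream, the longest run of A after any of the 11 clusters. The remaining site, at 68789230, had 10 deletions in 15 tags (66.7%, interval 41.7 to 84.8%), in a run of 9 T far upstream. With the highest site set aside, this shallow site was the only one in ZFP36L1 above 2.80%.

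ZFP36L2, the paralogue closest to ZFP36L1, lies on chromosome 2 from 43222402 to 43226606 (minus strand) and has a 3′UTR of 1920 nt with 1 annotated end. Its deep sites were at the end and near the start of the 3′UTR. At the end, a T was deleted in 68 of 2533 tags at position 43222416 (2.68%, interval 2.12 to 3.39%) and 63 of 2467 at position 43222441 (2.55%, interval 2.00 to 3.25%), 14 and 39 nt from the end. The difference within this pair was not tested, and the only AATAAA of the 3′UTR lay between both deletions. Early in the 3′UTR, 1649 nt before the end, position 43224051 had 41 deletions in 1945 tags (2.11%, interval 1.56 to 2.85%). No poly(A) signal lay within 50 nt of that site, and a run of 7 A began 44 nt downstream. The other 2 sites were shallow, with 13 deletions in 30 tags in a run of 11 T (43.3%, interval 27.4 to 60.8%) and 8 deletions in 8 tags (100%, interval 67.6 to 100%).

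ZFP36, also called tristetraprolin, is the founding member of the family and lies on chromosome 19 from 39406847 to 39409412 (plus strand). Its single site, at position 39409382, was 25 nt from an annotated end. There, 45 of 735 tags carried a deletion in a run of 5 T (6.12%, interval 4.61 to 8.09%). This was the lowest tag count of the 23 sites with under 30% and the highest percentage among them. The signal AATAAA started 6 nt after the listed position. Its window was also the only one of the 28 with a match to the AUA motif, a degenerate AU-rich heptamer with AUA at its centre that the study followed, and the match contains AATAAA.

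ELAVL1 lies on chromosome 19 from 7958573 to 8005659 (minus strand), and its representative transcript has a 3′UTR of 4913 nt. No site of ELAVL1 was within 100 nt of an annotated end. The 4 deep sites formed a cluster of 26 nt, 1363 to 1389 nt upstream of the nearest annotated end and 3707 to 3733 nt upstream of the last. At position 7962280, a T was missing from 197 of 5712 tags (3.45%, interval 3.01 to 3.95%). At 7962285 it was 71 of 5805 tags (1.22%, interval 0.971 to 1.54%), at 7962291 it was 104 of 5907 tags (1.76%, interval 1.46 to 2.13%), and at 7962306 it was 63 of 2373 tags (2.65%, interval 2.08 to 3.38%). The highest percentage was thus at the most downstream position. These sites share tags, so the differences between them were not tested. All 4 windows held the same ATTAAA, with deletions on both sides of it, and the longest run of A in the 50 nt after the cluster was 2.

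The last 3′UTR exon of ELAVL1 held 8 copies of AATAAA or ATTAAA, and 2 of them had a site within 25 nt. The first is the ATTAAA of the cluster above. The other is an AATAAA that starts 7 nt after position 7959233, where 23 of 46 tags carried a deleted T, 660 nt from the nearest annotated end (50%, interval 36.1 to 63.9%). The signal 24 nt before the last annotated end of ELAVL1 had no listed site beside it. In ZFP36L1, ZFP36L2 and ZFP36 the last end had one.

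Across the 28 sites, 18 lay within 100 nt of an annotated 3′ end, against 65.7% of 3′UTR sites, and the share was 64.3%. A poly(A) signal was in the window of 25 nt on each side at 12 sites (42.9%), against 65.4%. A T was deleted at 21 sites (75%), against 65.5%, and 19 of these were in runs of 3 or more T. The share of all 3′UTR sites in such runs was not computed. Deletions in 30% or more of the tags were found at 5 sites (17.9%), against 12.9%, and 4 of the 5 had at most 46 tags. Windows of a cluster overlap, and the 8 sites at the shorter ZFP36L1 end weigh heavily in these counts. Without them, 10 of 20 sites were within 100 nt of an end, 12 had a signal and 18 had a deleted T.

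The AUA motif was scarce. It was in the window of 1 of the 28 sites, against 51.7% of 3′UTR sites. Counted by the site with the most deletions in each cluster, it was in 1 of 11 windows, against 47.7% of 3′UTR clusters. When matches that contain AATAAA were left out, none of the 28 windows had one. The shares given for all 3′UTR sites and clusters include matches that contain AATAAA, and shares without them were not computed. A poly(A) signal was also less frequent at the 28 sites (42.9%, against 65.4%), and the part of this in the low count was not tested.

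Runs of at least 6 A followed within 50 nt at 15 of the 28 sites (53.6%), and after the highest site of 5 of the 11 clusters, against 10.5% of 3′UTR clusters. They were at 13 of the 16 sites with no poly(A) signal in the window, where the share over all such 3′UTR sites was 15.2%. Of the 12 sites with a signal 2 had such a run, both of them at the end of ZFP36L2, and the share over all 3′UTR sites with a signal was 8.75%. This measure was chosen after the sequences had been seen. Of the 13 sites without a signal, 8 were those at the shorter ZFP36L1 end.

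The AU-rich pentamer, through which the ZFP36 proteins and ELAVL1 are known to act, was in the window of 6 of the 28 sites (21.4%), near the 21.5% of all 3′UTR sites. The 3′UTR of ZFP36L1 held 8 copies (4.27 per kb), that of ZFP36L2 held 5 (2.60 per kb), that of ZFP36 held 5 (4.30 per kb) and that of ELAVL1 held 13 (2.53 per kb). Lengths were merged over all transcripts of a gene, which gave 1163 nt for ZFP36 and 5129 nt for ELAVL1. The representative transcripts have 711 and 4913 nt, and all 5 ZFP36 copies lay in the last 3′UTR piece, so its density depends on this choice. These densities were above those of 92.3, 71.8, 92.5 and 70.6% of 16051 protein-coding genes with a 3′UTR of at least 500 nt, whose median was 1.60 per kb. Of these copies, 2 in ZFP36L1 and 1 in ELAVL1 lay within 25 nt of a site, and none did in ZFP36L2 or ZFP36. The share of copies near a site was not computed for other genes. The longer TATTTAT was in none of the 28 windows and in 3.86% of those of all 3′UTR sites.

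Other regulators of AU-rich mRNAs were read from a list of 21 genes. A 3′UTR site was present in 16 of them (76.2%), with 74 sites in all. The 5 with the highest site were KHDRBS1 (962 of 18591 tags, 5.17%), HNRNPAB (557 of 13532 tags, 4.12%), FXR1 (270 of 5169 tags, 5.22%), PCBP2 (233 of 3418 tags, 6.82%) and PCBP1 (231 of 10478 tags, 2.20%). KHDRBS1 encodes the KH-domain protein Sam68, and the PCBP genes encode proteins that bind poly(C). No site was listed in ELAVL2, ELAVL3 or ELAVL4, the neuronal relatives of ELAVL1, nor in ZC3H12A, the endonuclease Regnase-1. CELF1 had a site on its strand and none in the 3′UTR. HNRNPD, which encodes the decay factor AUF1, had 4 sites, and KHSRP, TIAL1, RC3H1 and RC3H2 had 6, 3, 1 and 3.

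A second list held 32 partners of the ZFP36 proteins and of mRNA decay. They comprise CCR4-NOT deadenylase subunits, the TNRC6 proteins of the microRNA pathway, the poly(A)-binding protein PABPC1, the translational repressors GIGYF2 and EIF4E2, decapping factors and the exonuclease XRN1. They also comprise kinases (MAPK14, MAPKAPK2), phosphatases (PPP2CA, DUSP1) and 14-3-3 proteins, which bind ZFP36 proteins when these are phosphorylated. A 3′UTR site was present in 26 (81.2%), with 111 sites. The highest were in PABPC1, the cytoplasmic poly(A)-binding protein (925 of 13536 tags, 6.83%), YWHAB (533 of 34284 tags, 1.55%), MAPKAPK2, the kinase that phosphorylates ZFP36 (376 of 5399 tags, 6.96%), YWHAE (297 of 32248 tags, 0.921%) and YWHAG (190 of 13140 tags, 1.45%). CNOT1, the scaffold of the deadenylase, had no site, and neither did CNOT10, EDC3, EDC4 or XRN1. CNOT4 had a site on its strand and none in the 3′UTR. Both lists stood above the 31.3% of all protein-coding genes, without regard to expression. In contrast to the 4 transcripts, the AUA motif was in the windows of 35 of the 74 sites (47.3%) of the first list and 51 of the 111 sites (45.9%) of the second, and this contrast was not tested. A run of at least 6 A followed 20 sites (27.0%) and 21 sites (18.9%).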

How the data were processed

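CLIP-seq tags of FLAG-tagged RBMS3 came from 2 biological replicates of MDA-MB-231. The source label of replicate 2 gives another number for the line, and its title was followed. According to the methods, the authors added molecular identifiers to reads, ran the CLIP Tool Kit (alignment to hg38, filtering) and called deletion sites with filters on the false discovery rate and fold. The name of the deposited list describes pooled unique tags. Its deposited values are counts per site, of tags and of tags with the deletion, not normalized. Depth is thus known only per site, and library totals were not analysed here.

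Each listed interval is 21 nt long and its central base was taken as the deletion. At all 22334 sites where the deleted base had an identical neighbour, the listed base had the lowest coordinate of the run. No site lay beyond a chromosome end of the hg38 sequence. Sites were placed on GENCODE release 44 by strand, 3′UTRs first. Distances run to the nearest downstream end of a transcript with a 3′UTR. Motifs were searched on the transcript strand in windows of 51 nt, and runs of A in the next 50 nt of the genome. AATAAA can overlap the AUA motif. Members, gene lists and properties were chosen with earlier results of these data known, and runs of A after the sequences were seen. All 28 sites are described, singly or by range, and for each list the 5 genes with the most deletions at a 3′UTR site are named first. The functions were tested on simulated sites. Software was samtools 1.23.1, Python 3.11.15, pandas 2.3.3, matplotlib 3.10.9, numpy 2.4.6 and pysam 0.24.0.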

Additional observations from a re-analysis of the deposited data

How the results depend on the processing

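No paired analysis was possible because the replicates of the single group were pooled, so no replicate could be left out. Of 56 alternative values, 26 stayed within 1.5 times a count or within the interval of a share. The number of clusters was 5 with at least 50 deletions, 7 with deletions in under 30% of tags, a filter that also removes the highest ZFP36L1 site, and 19 with sites joined within 10 nt. Sites within 100 nt of an end numbered 10 with representative transcripts alone, where the shorter ZFP36L1 end is not counted and the median distance was 964.5 nt in place of 64 nt, 11 within 50 nt, and 10 without the cluster at the shorter ZFP36L1 end, which was chosen after seeing the data. In windows of 10 nt on each side, a poly(A) signal was at 2 sites, the AUA motif at 0 and ATTTA at 2. The AUA motif was at 2 sites in windows of 50 nt and at 0 without matches that contain AATAAA, and TATTTAT was at 0. A T was deleted at 8 of 11 sites with 1 site per cluster and at 0 of 3 where the base differed from both neighbours. Runs of A within 25 nt followed 9 sites, a setting added after seeing the data.

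The place of each gene's highest site depended on the background. For ZFP36L1, 87.1% of 3′UTR sites had a lower percentage, 70.1% of all sites and 96.1% of 3′UTR sites near an end. In the same order, fewer deletions than ZFP36L2 were found at 52.8, 62.4 and 46.1% and lower percentages at 60.3, 47.9 and 68.8%. For ZFP36 these were 21.7, 37.0 and 13.0% for deletions and 79.2, 63.0 and 88.9% for percentages. For ELAVL1 they were 88.5, 90.9 and 86.3%, and 67.3, 53.5 and 76.3%.

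Depth limits the 4 sites with 8 to 46 tags. All 23 sites under 30% had at least 735 tags, so positions with few tags and a low percentage are not described here.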

Other observations

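The percentage of tags with the deletion varied with the base and with the length of the run that holds it, over all 3′UTR sites of the list. Where a single T was deleted, outside any run, the median was 0.577% over 1204 sites. It was 2.51% in runs of 2 to 3 T (8688 sites), 2.76% in runs of 4 to 5 T (3216 sites), 4.20% in runs of 6 to 7 T (588 sites) and 9.01% in runs of 8 or more T (203 sites). For a deleted A the medians showed no such order below 8 bases, at 0.711% for a single A, 0.989% in runs of 2 to 3, 0.553% in runs of 4 to 5, 0.944% in runs of 6 to 7 and 2.12% in runs of 8 or more. The sites in longer runs of T also had fewer tags, with a median of 11363.5 for a single T and 1129 for 8 or more. The median number of deletions changed little over the same groups of T, between 53 and 71. Every listed site had also passed the filters on the false discovery rate and fold. The parts of tag number and of these filters in the rise of the percentage were not tested. Of the ZFP36 family and ELAVL1 sites, 25 of 28 were in runs of more than 1 base, against 22334 of all 27706 listed sites. The deep sites in runs of 4 or 5 T were at 0.917 to 2.80% in ZFP36L1, 2.55 and 2.68% in ZFP36L2, 6.12% in ZFP36, and 1.22 and 3.45% in ELAVL1. These shares describe the pooled list and were not tested.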
